A study of Mus musculus with 5 samples.

Results

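The regions described here are the narrow peaks that were high in the negative control of a CUT&RUN experiment on neonatal mouse cardiomyocytes. They are the peaks under 500 bp wide (end minus start) with at least 20 CPM (the reads of a peak scaled to the library's total over all peaks) in the negative control library; they were chosen by these values, so their negative control levels are no finding. The rule found 132 of 85275 peaks in the authors' table, or 0.251% of the 52643 peaks under 500 bp. Cardiomyocytes were isolated from the hearts of mice at postnatal day 1 and treated for 72 h with Control-ShRNA-IL or with Kdm5b-ShRNA-IL, a short hairpin RNA against the H3K4 demethylase gene Kdm5b. There were 2 control and 2 knockdown libraries of H3K4-enriched chromatin, and 1 negative control library from cells treated with Control-ShRNA-IL. The meaning of IL, the antibody of the negative control and the methylation state recognised on H3K4 are not stated. The cell type label carries a number that differs between the 5 samples (P1 to P5), whereas the isolation protocol gives day 1 for all. If the label were the age, age could not be told apart from the groups. The title of the series names Kdm5b as a regulator of cell-cycle genes. Kdm5b RNA was not measured here, so the knockdown is taken from the labels.

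In CUT&RUN an antibody recruits a nuclease, which cuts the DNA around the bound mark. With a control antibody the nuclease is not directed to a mark, and the reads that remain come mainly from open chromatin, from random cutting and from repeated sequence that an assembly holds in too few copies. Loci that gather reads in this way in many libraries are known as hot spots and are often masked before analysis. Mouse chromosomes carry the centromere at one end, next to large arrays of satellite repeats, and assemblies number each chromosome from that end.

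Reads in peaks came to between 18710132 and 31068085 in the H3K4 libraries and to 3784381 in the negative control, in which the limit of 20 CPM is reached at 76 reads. The H3K4 libraries are called 3 and 4 after their columns, since the sample titles number them otherwise. Peaks under 500 bp held 6.66% and 5.80% of the reads in control libraries 3 and 4, 5.64% and 3.65% in knockdown libraries 3 and 4, and 21.9% in the negative control. All 10 genes of a cardiomyocyte marker list had peaks, with a summed level of 1575 to 1580 CPM in the controls, 1348 to 1422 CPM after knockdown and 2571 CPM in the negative control. Markers of other cardiac cells were present too, at 435 to 467 CPM (controls) and 523 to 530 CPM (knockdown) for 6 fibroblast genes and at 192 to 205 CPM and 246 to 252 CPM for 5 epicardial genes. They were at 183 to 193 CPM and 216 to 221 CPM for 5 smooth muscle genes (4 with a peak) and at 157 to 173 CPM and 168 to 172 CPM for 5 endothelial genes. For 5 immune genes, 3 of them with a peak, the sums were 5.68 to 7.59 CPM and 3.12 to 4.65 CPM. The negative control was above the H3K4 libraries for these other lists too. It held 721 CPM (fibroblast), 571 CPM (epicardial), 243 CPM (smooth muscle), 321 CPM (endothelial) and 18.8 CPM (immune). Cardiomyocyte and immune sums were thus lower and fibroblast, epicardial and smooth muscle sums higher after knockdown; none of these genes held one of the 132 regions, and the part of cell makeup in the results was not tested. The labels do not tell separate cultures from repeat libraries, so no p-value covers more than the spread among libraries, and that spread may be technical. In the limma fit below, the spread was taken from peaks of similar level and not from the peak's own libraries.

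The 132 regions lay unevenly along the genome (GRCm39). Chromosome 11 held 18 of them (13.6%, against 6.12% of all peaks under 500 bp), chromosome 2 held 14 and chromosome 3 held 12, and chromosome 10, with 2973 narrow peaks, held 0. The first 3 Mb of the mouse autosomes is unsequenced in the assembly. Of the 132 regions, 16 (12.1%) began before 3.2 Mb, against 53 of the 52511 other narrow peaks (0.101%). These 16 fell on chromosomes 11 (11 regions), 3 (2 regions) and 9, 14 and 18 (1 region each). In all, 29 regions (22.0%) lay within 100 kb of another, in 8 runs, and 99 had no other region within 1 Mb.

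The largest run held 11 regions over 76.3 kb of chromosome 11, from 3053665 to 3130003. The table assigns 6 of them to Sfi1, which encodes a centrin-binding protein of the centrosome, 4 to Gm33862 and 1 to the pseudogene Pisdps1. Its summed level was 1184 CPM in the negative control, 243 and 227 CPM in control libraries 3 and 4, and 216 and 132 CPM in knockdown libraries 3 and 4. The second run held 6 regions over 13.3 kb of chromosome 7, from 37887338 to 37900611, all assigned to 1600014C10Rik. It summed to 268 CPM in the negative control, to 58.6 and 58.5 CPM in the controls, and to 45.8 and 32.1 CPM after knockdown. In both runs knockdown library 4 was the lowest of the 5 libraries. The other 6 runs were pairs, among them 2 regions at Sp8, 2 at Dlx6 and 2 at Irx5.

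**Figure D1:**
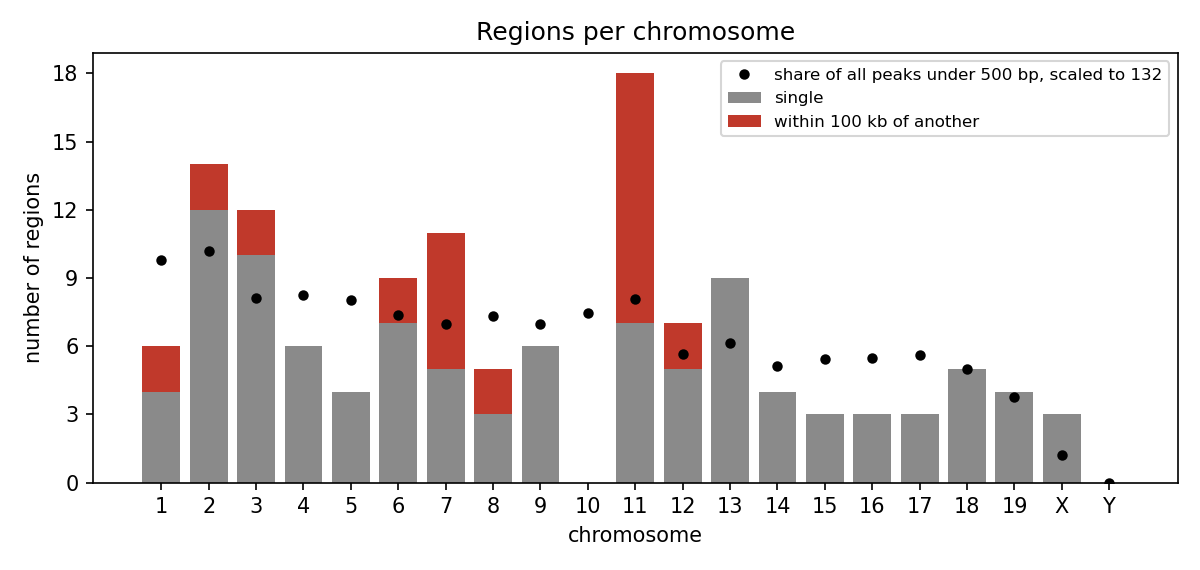
Number of the 132 regions on each mouse chromosome (bars), split into regions within 100 kb of another (red) and single ones (grey). Black points give each chromosome's share of all peaks under 500 bp on the same scale: chromosome 11 holds 18 regions, 11 of them in 1 run, and chromosome 10 holds 0.

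A further group, defined by gene symbol, was chosen after the values were seen. Of the 132 regions, 29 (22.0%) were assigned to 26 symbols of developmental transcription factor families, against 371 of the other narrow peaks (0.707%). Homeobox genes accounted for 18 regions (13.6%, against 0.206%). They include Gsx1, Vax1 and Emx1, which pattern the forebrain, Dlx6 of the craniofacial skeleton, Shox2, which acts in the sinus node of the heart, and Hoxa7 and Hoxc9 of the body axis. The regions outside the homeobox genes were at Sp8 and Sp9, Tfap2a and Tfap2e, Sall2, Sall3, Gfi1, Sox17, Neurod1 and Irf4. None of the regions was assigned to a forkhead, T-box, GATA or PAX gene, to which 102, 22, 18 and 1 narrow peaks were assigned. With only 0.251% of all narrow peaks in the set, these numbers are too small to read this as an absence. Of the 26 symbols 5 also had a peak of at least 2 kb (19.2%), as did 19 of the 115 symbols of all 132 regions (16.5%), against 38.5% of the symbols of other narrow peaks. The median distance to the nearest such peak was 92.2 kb at the developmental regulators and 59.7 kb over all 132 regions, against 35.5 kb for the other narrow peaks.

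The remaining 81 regions had 81 different symbols. They include genes of neurons (Gad2, Grik1 and Kcna6) and the signalling ligand genes Fgf8 and Dll1. RefSeq (GRCm38.p6, used for names only) matched 130 of the 132 regions, 95 of them to protein-coding genes (73.1% of those matched, against 61.7% for the other narrow peaks). Of 28 symbols known as background hot spots 3 had a peak, with 20 peaks in all. Sfi1 and Mid1 accounted for 7 of the 132 regions, and those at Sfi1 all lay in the run on chromosome 11. The list was chosen with earlier results of these data known, so these 7 are a description only.

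Levels in the negative control chose the regions and are given as a description. They ranged from 20.1 to 426 CPM with a median of 24.8 CPM. Of the 132 regions, 92 lay under 30 CPM and 9 at 100 CPM or more, and the 10 highest held 32.1% of the regions' reads in that library. At the limit, Gad2 and Gm40010 were just inside with 20.1 CPM (76 reads), and Grm6, Scrt1 and Foxl2 were just outside with 19.8 CPM (75 reads). The widest region had 497 bp, and the narrowest peak beyond the width limit with 20 CPM had 504 bp. The set is therefore the upper end of a continuous range, with 410 further narrow peaks from 10 to under 20 CPM.

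The highest region of all was at Gtpbp4, the gene of a nucleolar GTPase of ribosome assembly, on chromosome 13 from 9061765 to 9062229. It held 426 CPM in the negative control (1612 reads, exact 95% Poisson interval 405 to 447 CPM, which covers counting error only), 72.4 and 70.4 CPM in control libraries 3 and 4, and 62.0 and 48.1 CPM in knockdown libraries 3 and 4. The negative control was thus above every H3K4 library, and both knockdown libraries lay below both controls. Per length it reached 918 CPM per kb in the negative control. The strongest other peak of Gtpbp4, 3180 bp wide and 14.7 kb away, showed the opposite order, with 34.4 CPM in the negative control and 70.9 to 77.8 CPM in the H3K4 libraries.

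Nearly all regions were lower in the H3K4 libraries than in the negative control, a direction that the choice of high negative control values favours. It is not particular to them: of the 52511 other narrow peaks, only 43 had an H3K4 mean at or above the negative control. The median ratio of the mean H3K4 CPM to the negative control was 0.187, with 0.171 and 0.219 as quartiles, and 4 of 132 regions exceeded 0.3. For the other narrow peaks the median was 0.248. The medians by group were alike, at 0.177 for the chromosome starts, 0.180 for the chromosome 7 run, 0.190 for the developmental regulators and 0.188 for the rest. Scaled to reads in peaks under 500 bp, the median log2 ratio was -0.36 in place of -2.21. Across the 132 regions Pearson's r of log2(CPM + 1) between the negative control and the control mean was 0.910. Among the 92 regions under 30 CPM it was 0.389. Regions are not independent replicates, and the values share the peak set and the scaling.

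The exceptions were few. At Gm39123, on chromosome 8 from 4706620 to 4706853, the H3K4 libraries held 47.0 and 50.6 CPM (controls) and 56.3 and 62.6 CPM (knockdown) against 45.2 CPM in the negative control. It was the only region whose H3K4 mean exceeded the negative control. Ifna13, an interferon alpha gene, had 32.7 and 34.5 CPM in the controls, 33.1 and 35.3 CPM after knockdown and 84.8 CPM in the negative control (chromosome 4, 88559345 to 88559560). The region at Vmn1r238, a pheromone receptor gene, had 23.7, 19.8, 27.5 and 23.6 CPM in the 4 H3K4 libraries in the same order and 66.1 CPM in the negative control (chromosome 18, 3004231 to 3004483). The 4 H3K4 libraries were close to each other at Ifna13, and the groups overlapped at Ifna13 and at Vmn1r238. The last of the 4 regions with a ratio above 0.3 was at Mir101c (0.302), described below. At the other end the lowest H3K4 means were at Sall3, Gm11418, Gnat1, Cryba2 and Cyp1a1, with 2.37 to 3.70 CPM in any H3K4 library.

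**Figure D2:**
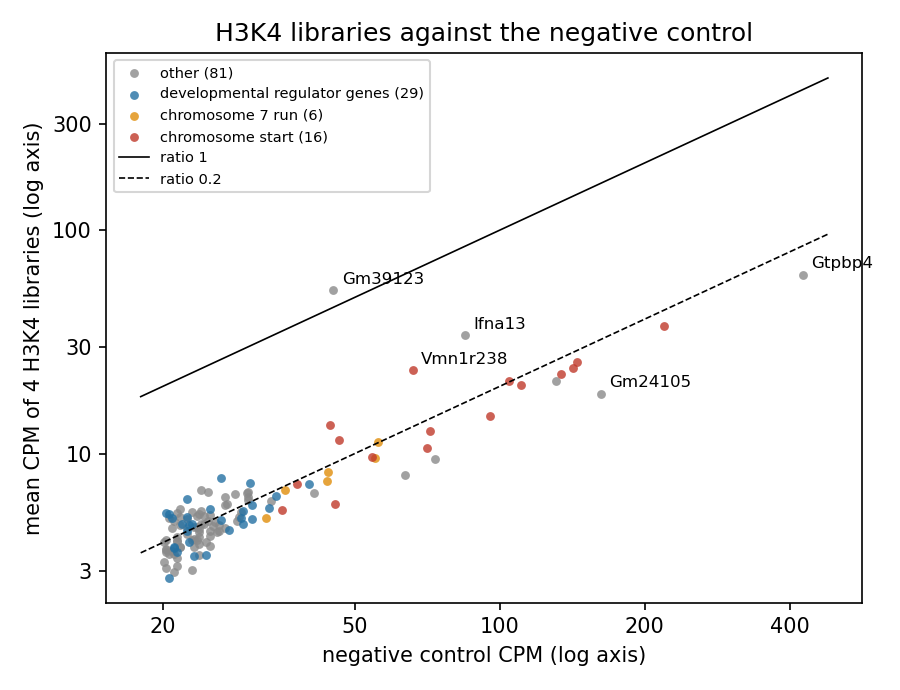
Mean CPM of the 4 H3K4 libraries against negative control CPM for the 132 regions, both on log axes and coloured by group. Most regions follow the dashed line (ratio 0.2), and Gm39123 is the 1 region above the solid line (ratio 1).

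The rule used the width and the negative control but none of the H3K4 libraries. The negative control came from control-treated cells, so the rule is not neutral between the groups and may favour regions that are high under the control treatment. The 132 regions took 0.114% and 0.111% of the reads in control libraries 3 and 4, 0.0974% and 0.0857% in knockdown libraries 3 and 4, and 0.521% of the negative control's, a share that the rule itself raises. The knockdown mean was lower by 0.0212 percentage points, and the 2-sided exact permutation test gave p = 0.33, its lowest possible value for 2 libraries against 2. As a share of reads in peaks under 500 bp the order was not kept, with 1.71% and 1.92% in the controls and 1.73% and 2.35% in the knockdown libraries (exact permutation p = 0.667).

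Peak by peak, the limma fit over 58072 peaks called 22 of the 132 regions lower and 1 higher in the knockdown libraries. Among all peaks tested 1.63% were called lower and 1.33% higher. All 132 regions had passed the filter of 1 CPM in 2 H3K4 libraries, and 104 had a negative fold change. Their median log2 fold change was -0.23, against -0.14 over all peaks and -0.23 over the 25461 other narrow peaks tested, of which 23 were called lower and 0 higher. The fit takes the spread of a peak from peaks of the same height, so it calls small changes more readily at high peaks. The regions called lower had a median control level of 15.1 CPM, and those not called 5.38 CPM. Both knockdown libraries lay below both controls at 67 regions (50.8%) and above them at 9 (6.82%), against 35.4% and 12.1% of all peaks tested. Among the other narrow peaks tested the shares were 37.85% and 3.44%. The counts depend on the scaling: TMM gave 3 lower and 0 higher (35 and 62 over all peaks), and scaling on the other narrow peaks gave 0 and 0 (0 and 0 over all peaks) and moved the median over all peaks to 0.18 and over the 132 regions to 0.16.

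The largest falls were at 3 single regions, and the next was -0.73 on the log2 scale. At Gm24105, on chromosome 5 from 149184748 to 149185119, control libraries 3 and 4 held 30.4 and 30.1 CPM, knockdown libraries 3 and 4 held 7.56 and 6.31 CPM, and the negative control held 162 CPM. On the log2 scale this is a change of -1.98 with an SE of 0.12 (limma adjusted p = 5.7e-57). At Ncoa1, the gene of a nuclear receptor coactivator, the values were 15.3 and 15.2 CPM in the controls, 3.71 and 3.70 CPM after knockdown and 73.5 CPM in the negative control (chromosome 12, 4467733 to 4468032). The log2 change was -1.79 with an SE of 0.15 (limma adjusted p = 1.4e-26). At Malt1, which encodes a paracaspase of immune signalling, they were 11.3 and 14.3 CPM, 3.71 and 2.83 CPM, and 63.7 CPM (chromosome 18, 65560550 to 65560982), a log2 change of -1.69 with an SE of 0.16 (limma adjusted p = 1.8e-20). The groups were far apart at each of the 3, and knockdown libraries 3 and 4 lay close together.

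The control mean was 0.186 to 0.208 of the negative control at these 3 regions, and the median at the other 129 was 0.210. All 3 were higher in both H3K4 libraries of control-treated cells than in both libraries of knockdown cells. The negative control also came from control-treated cells, but its high level was set by the rule and adds nothing to this contrast. No negative control of knockdown cells was analysed here. The table cannot tell whether reads in these narrow intervals came from the locus itself or from other DNA of the same sequence, such as an added construct, and this was not tested. The neighbouring peaks tested did not pass. The nearest peak to Gm24105, 1.74 kb away, held 2.21 to 2.57 CPM in all 4 H3K4 libraries (log2 fold change 0.06, SE 0.25, limma adjusted p = 0.944). The wide peak of Malt1, 2.07 kb away, had a log2 fold change of 0.09 (SE 0.06, adjusted p = 0.459), and the strongest peak of Ncoa1 had 0.07 (SE 0.06, adjusted p = 0.579). The falls at Gm24105, Ncoa1 and Malt1 were called in 14 of the 16 other fits. The exceptions were limma without a trend (adjusted p = 0.316 for each) and scaling on the other narrow peaks (adjusted p = 0.806 for each), where the log2 fold changes were -1.98, -1.79 and -1.69, and -1.56, -1.39 and -1.30, respectively.

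At the chromosome starts 10 of 16 regions were called lower, against 1.63% of all peaks tested, with a median log2 fold change of -0.42. All of those called lower except Mir101c lay in the run on chromosome 11, so the count mostly describes 1 locus. At Vmn1r238, on chromosome 18, the log2 fold change was 0.22 and was not called. How reads that map to several copies of a sequence were counted is not stated, so these loci may share reads. At the Sfi1 region from 3109540 to 3109893 of chromosome 11 the controls held 44.0 and 41.5 CPM, the knockdown libraries 38.6 and 24.7 CPM and the negative control 220 CPM (log2 fold change -0.46, SE 0.08, limma adjusted p = 3.7e-05). At the Gm33862 region from 3092345 to 3092594 the values were 18.5 and 17.1, 15.1 and 8.40, and 95.7 CPM (log2 fold change -0.61, SE 0.12, adjusted p = 0.00021). Knockdown library 3 was near the controls and library 4 well below them. The region assigned to Mir101c, on chromosome 9 from 3000029 to 3000504, was called lower (limma adjusted p = 0.010) although its groups overlap, with 12.9 and 17.0 CPM in the controls, 18.1 CPM in knockdown library 3 and 5.60 CPM in library 4. At the chromosome 7 run 3 of 6 regions were called lower, with a median of -0.51.

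In all 16 regions at chromosome starts and all 6 of the chromosome 7 run, library 4 was below library 3, with a median ratio of 0.556 and 0.693. Without library 4, where library 3 alone is assumed to vary like the controls, the fit called 0 of these 22 regions. The median log2 fold change at the chromosome starts was then 0.01, whereas in the chromosome 7 run it was still -0.35, and library 3 alone was below both controls at 4 of those 6 regions and at 8 of the 16. Of all 132 regions only Gm24105, Ncoa1 and Malt1 were called lower without library 4, where 0.334% of all peaks were. Library 4 also had the smallest share of reads in narrow peaks, and among the other narrow peaks its median ratio to library 3 was 0.632. The part of library 4's narrow-peak share in these calls was not tested.

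At the developmental regulators the order of libraries 3 and 4 was mixed, and the difference between the groups of regions was not tested. Library 4 was below library 3 at 12 of their 29 regions, with a median ratio of 1.04, and the rest of the regions had 1.06. Of the 29, 1 was called lower (3.45%) and 0 higher, against 1.63% and 1.33% of all peaks tested. A single call is too few to read as a trait of this group. The median log2 fold change was -0.19, against -0.14 over all peaks and -0.23 over the other narrow peaks tested. The region called lower was at Sp8, a zinc finger gene of limb and forebrain growth, on chromosome 12 from 118811662 to 118812145. It held 9.35 and 8.32 CPM in the controls, 5.83 and 5.79 CPM after knockdown and 40.2 CPM in the negative control (log2 fold change -0.53, SE 0.16, limma adjusted p = 0.037). At Sox17, an endoderm and endothelial regulator, the values were 5.18 and 6.84, 4.98 and 5.79, and 33.3 CPM, and at Gsx1 they were 4.86 and 5.47, 4.13 and 4.99, and 29.3 CPM. The groups overlapped at both and neither passed (limma adjusted p = 0.759 and 0.721). The largest positive fold changes among the 29 were at Zfhx4, with 2.51 and 2.89 CPM in the controls and 4.28 CPM in each knockdown library, and at an Irx5 region, with 3.42 and 4.10 against 5.03 and 5.73 CPM. The groups did not overlap there, and neither passed (log2 fold change 0.51 and 0.42, adjusted p = 0.187 and 0.235).

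**Figure D3:**
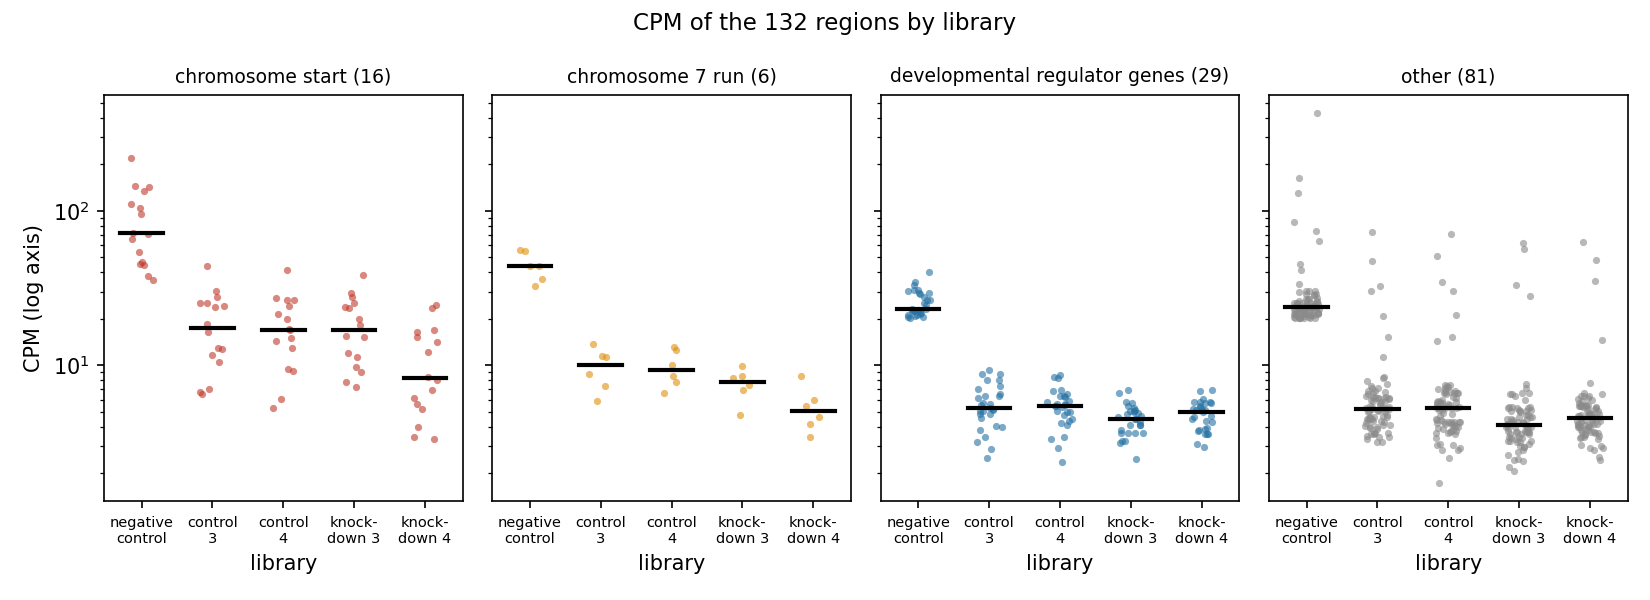
CPM (log axis) of the 132 regions in each of the 5 libraries, by group; each point is 1 region and each bar the median. Knockdown library 4 has the lowest median at the chromosome starts (8.22 CPM, against 16.8 CPM in library 3) and in the chromosome 7 run, but not among the developmental regulators (4.99 against 4.51 CPM).

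Among the other 81 regions 8 were called lower (9.88%) and 1 higher, against 1.63% and 1.33% of all peaks tested. A single rise is too few to set against that share. Beside Gm24105, Ncoa1 and Malt1 the falls were at Gtpbp4 (log2 fold change -0.38, SE 0.07, limma adjusted p = 1.9e-05), Zfp945, Slc22a7, Alkal2 and Mmp9. At the last 4 the log2 fold changes ran from -0.73 to -0.59. At Zfp945, a zinc finger gene, the controls held 6.15 and 4.89 CPM and the knockdown libraries 3.43 and 2.45 CPM. At Mmp9, the gene of a matrix protease, they held 5.88 and 6.89 against 3.90 and 3.86 CPM. The groups did not overlap at any of these falls, and at Zfp945, Slc22a7, Alkal2 and Mmp9 the values in the H3K4 libraries are a few CPM. The 1 rise was at Gm39123 (log2 fold change 0.28, SE 0.07, limma adjusted p = 0.0096). With TMM scaling it was not called, although its log2 fold change was 0.39 (adjusted p = 0.218). TMM called 35 peaks lower and 62 higher over all peaks. Of the 8 falls TMM kept the calls at Gm24105, Ncoa1 and Malt1, and the others kept their direction, with log2 fold changes of -0.27 at Gtpbp4, -0.64 at Zfp945, -0.60 at Slc22a7, -0.53 at Alkal2 and -0.50 at Mmp9. Gm39681, with 131 CPM in the negative control, had 20.7 and 21.1 CPM in the controls but 28.2 and 14.5 CPM in knockdown libraries 3 and 4, on both sides of the controls.

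**Figure D4:**
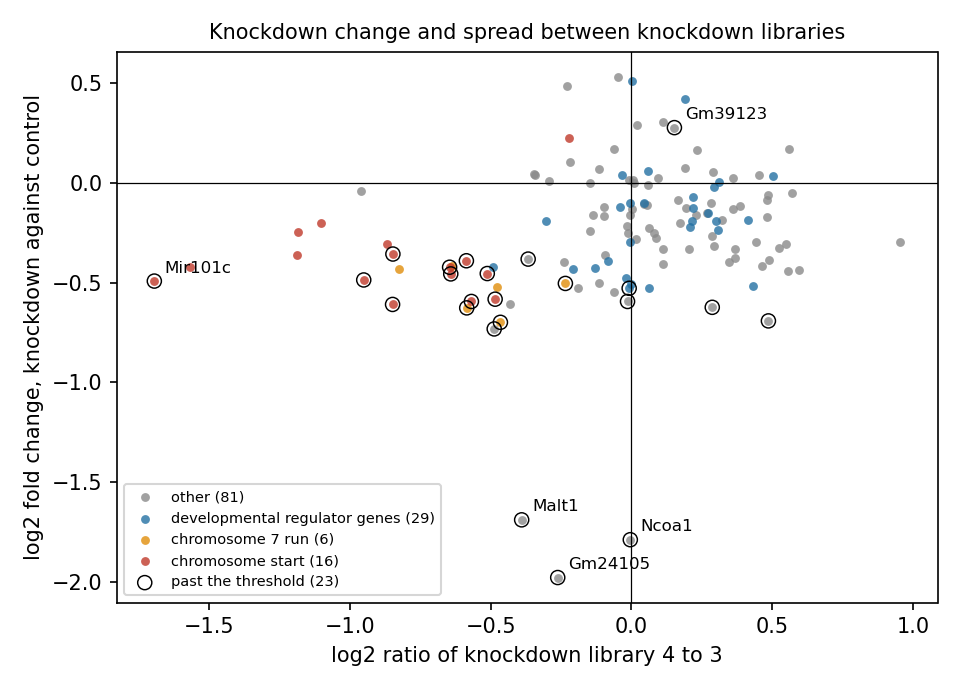
Log2 fold change of knockdown against control for the 132 regions, against the log2 ratio of knockdown library 4 to 3; circled regions passed the threshold (23). Gm24105, Ncoa1 and Malt1 lie between -1.98 and -1.69, and the regions at chromosome starts lie to the left of 0, where library 4 was below library 3.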

How the data were processed

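The authors deposited 1 table of CPM per peak for 5 CUT&RUN libraries, with peak position and gene symbol. Trim Galore and the build GRCm39 are named (per the submitters' processing notes). No source used here states the aligner, the peak caller, how peaks were merged and counted, or how genes were assigned. The deposited CPM were whole multiples of 1 read per library for 100% of values (tolerance 1e-06). All 5 value columns were used, 0 were left out, and the scaling totals include the reads of 2 lines that are empty in the table.

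Values were analysed as log2(CPM + 1), which understates changes where levels are low. limma tested the peaks that reached 1 CPM in 2 of the 4 H3K4 libraries (version 3.58.1 in R 4.3.3, with an intensity trend, 2-sided, Benjamini-Hochberg adjustment over all 58072 and a threshold of 0.05). The prior degrees of freedom were infinite, so each SE and p-value of this fit rests on the trend over peaks. A peak's own spread between libraries does not enter them. edgeR (4.0.16) quasi-likelihood on the recovered reads was an alternative; it called 712 peaks lower and 634 higher over all peaks, against 947 and 773 with limma. The fit was also run on simulated reads. These held no difference in narrow-peak share between libraries, so that run cannot speak to how the calls depend on the scaling. Groups of regions use position (start before 3.2 Mb), runs within 100 kb and gene symbol. Regions, groups and lists were chosen with earlier results of these data known. Named regions were the 10 highest in the negative control, the 10 largest falls and rises called with groups that do not overlap, the 5 highest and 5 lowest H3K4 means, the largest runs, the peaks next to the limit and hot-spot genes, up to 30; others (Sp8, Mir101c, Vmn1r238, Sox17, Gsx1, Zfhx4, Irx5 and further symbols given without tests) were chosen after their values were seen. Some regions are not reported by name here. The sequences of the regions are not printed, since no genome of the files' build was used here.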

Additional observations from a re-analysis of the deposited data

How the results depend on the processing

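The count of 22 regions lower and 1 higher depends on the scaling and on single libraries. It was 3 lower and 0 higher with TMM scaling (35 and 62 over all peaks) and with median centring (3 and 28), 14 and 5 with quantile normalization (797 and 602), and, with 0 calls over all peaks too, 0 and 0 with limma without a trend (28 regions at an unadjusted p of 0.05) and with scaling on the other narrow peaks (9 regions). Leaving out 1 library gave 3 to 24 lower and 0 to 1 higher: 12 lower without control library 3 or 4 (185 and 430 over all peaks), 24 without knockdown library 3 (476) and 3 without knockdown library 4 (194). In the reported fit 9 were lower outside the chromosome starts and the chromosome 7 run, and also 9 outside all runs (both chosen after seeing the data). Over all peaks tested 1.63% were lower in that fit. Pseudocounts, filters, scaling on peaks of at least 2 kb and edgeR gave 16 to 23 lower. The counts over all peaks then ran from 712 with edgeR to 1472 with scaling on peaks of at least 2 kb.

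The median log2 fold change of -0.23 was -0.14 with a pseudocount of 5, -0.32 with a filter of 5 CPM, -0.13 with TMM, -0.053 with quantile normalization, 0.0094 with median centring, 0.16 with scaling on other narrow peaks, -0.27 with scaling on wide peaks and -0.27 with edgeR, and -0.25 to -0.19 with 1 library left out. The median over all peaks was 0.10 under median centring and 0.18 under narrow-peak scaling. With other limits the rule gave 542 regions (10 CPM, median -0.15), 27 (40 CPM, -0.45), 34 (under 300 bp, -0.30) and 673 (under 1000 bp, -0.16). The log2 ratio to the negative control (-2.21) was -0.36 per read in narrow peaks, and -2.31 and -1.62 with pseudocounts of 0.5 and 5. The difference in read share was 0.221 percentage points within narrow peaks, and -0.0270 to -0.0153 with 1 library left out. The fold change turned positive with scaling on other narrow peaks at Gtpbp4 (0.068) and at the Sfi1 regions starting at 3113663 (0.081), 3104883 (0.047) and 3129701 (0.013), and at the one starting at 3113663 it ran from -0.76 without knockdown library 3 to 0.049 without knockdown library 4. The cause was not tested.

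The column numbers pair the libraries by name only (correlation of deviations 0.118 over 58072 peaks, with 2 pairs). With the replicate block 33 regions were lower and 1 higher, the 22 among them, with 2275 of 58072 peaks lower in all against 947 without the block, and the median stayed at -0.23. At 20 CPM the negative control rests on 76 reads, and 1 library gives no spread.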

Other observations

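Wider peaks near the start of chromosome 11 were also high in the negative control. A 510 bp Sfi1 peak inside the run (3100960 to 3101470) held 169 CPM there and 36.7, 29.1, 28.2 and 16.1 CPM in control libraries 3 and 4 and knockdown libraries 3 and 4. Sfi1 peaks of 1719 bp (3102574 to 3104293, inside the run) and 1590 bp (3142454 to 3144044, beyond its end) reached 475 and 513 CPM in the negative control; 513 CPM was the highest value of that library. In the H3K4 libraries the first of these held 106, 93.9, 83.6 and 55.2 CPM in the same order and the second 158, 153, 147 and 118 CPM, again with the lowest value in knockdown library 4. A 3679 bp Sfi1 peak further on (3151625 to 3155304) showed the other order, with 39.6 CPM in the negative control and 80.4 to 87.1 CPM in the H3K4 libraries.

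The start of chromosome 4 held no region under the rule but a 1501 bp peak assigned to Vmn1r2 with 200 CPM in the negative control and 33.0, 33.2, 35.4 and 19.1 CPM in the H3K4 libraries. Peaks began before 3.2 Mb on 16 chromosomes (Y included), and on 5 of them a narrow one reached 20 CPM.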
